A study of Mus musculus with 51 samples.

Results

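Sertoli cells isolated from the testes of P7 mice were compared between animals in which Dmrt1 had been deleted and controls that kept an intact copy. The comparison holds the 6 RNA libraries whose columns in the count table name P7 Sertoli cells, 3 of each kind, out of 30 RNA libraries and 51 samples in the whole series. In mutant cells the genotype label is Dmrt1 f/f and in control cells Dmrt1 f/+, and both groups also carry Dhh-Cre and the reporter CAG-Stopflox-tdTomato on a mixed background of 129Sv and C57Bl/6J. The titles and the table call the controls Dmrt1 +/+, whereas the genotype field gives f/+ and the paper's results call them heterozygous. Dhh-Cre expresses the recombinase from the promoter of Desert hedgehog, a gene of Sertoli cells and of Schwann cells. Cells came from tubules pooled from pairs of mice and were depleted of germ cells with Thy1 and c-Kit antibody beads, so that each library is a preparation in which other testis cells can remain. The paper's methods describe a microscope check of purity by tdTomato, with a high lower limit for the preparations used. The rest of the series covers whole gonads at P3 and P28, binding of DMRT1, ESR2, LRH1 and FOXL2 in gonads (LRH1 also in adult ovary), and Hi-C.

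DMRT1 is a zinc finger transcription factor of the DM domain family that keeps Sertoli cells male after birth. Sertoli cells are the somatic nurse cells of the seminiferous tubule. They enclose the germ cells, secrete hormones such as AMH and inhibin, and build the blood-testis barrier from tight junctions. FOXL2 holds the opposite position in the granulosa cells of the ovary, and loss of either factor in the adult gonad is known to move somatic cells toward the fate of the other sex.

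Dmrt1, on chromosome 19 from 25505618 to 25604329 (GRCm38), was counted at 179, 172 and 270 CPM (reads of a gene relative to its library's TMM-scaled total) in control libraries 1 to 3. Mutant libraries 1 to 3 held 24.7, 38.2 and 22.2 CPM. The groups did not overlap, and Dmrt1 was 7.31-fold lower in mutant cells (log2 fold change -2.87, SE 0.268, adjusted p = 0.00146). Reads were summed over the entire gene, so its floxed part cannot be read apart from the remainder.

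Library totals ran from 5043838 to 8965797 counts. Log2 expression correlated at 0.944 to 0.967 within groups and at 0.897 to 0.942 between them, across genes. The first principal component took 50.7% of the variance and separated the groups, with control 2 nearest to the mutants (-17.4, against -47.0 and -59.3 for the other controls). Mitochondrial transcripts made up 6.13 to 11.9% of the counts. The labels do not say whether libraries of a group came from separate animals, so p-values measure the spread between these preparations.

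Deletion of Dmrt1 changed 639 genes by more than 2-fold at an adjusted p below 0.05, out of 14013 genes with enough counts to test. Of these, 359 were higher in mutant cells (2.56% of genes tested) and 280 were lower (2.00%). The median log2 fold change over all genes tested was -0.0058. In all 639 the 3 mutant libraries lay on one side of the 3 control libraries, a separation that 14.5% of genes tested showed toward higher and 13.4% toward lower values. Genes that rose had a median of 7.51 CPM in controls and 26.8 in mutants, and genes that fell 33.9 and 7.81 CPM. Over all genes tested the control median was 25.5 CPM. The calls were made on these same values, so a low median on 1 side of each list is partly built in. The largest changes comprised 31 genes under a log2 fold change of -4 and 16 genes over 4. Of the lncRNAs tested, 25 of 1002 rose and 13 fell. How many genes were called depended on single libraries: from 121 to 574 rose and from 153 to 415 fell when 1 library was left out, with most calls without control 2 and fewest without mutant 3 (higher) or control 3 (lower).

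**Figure D1:**
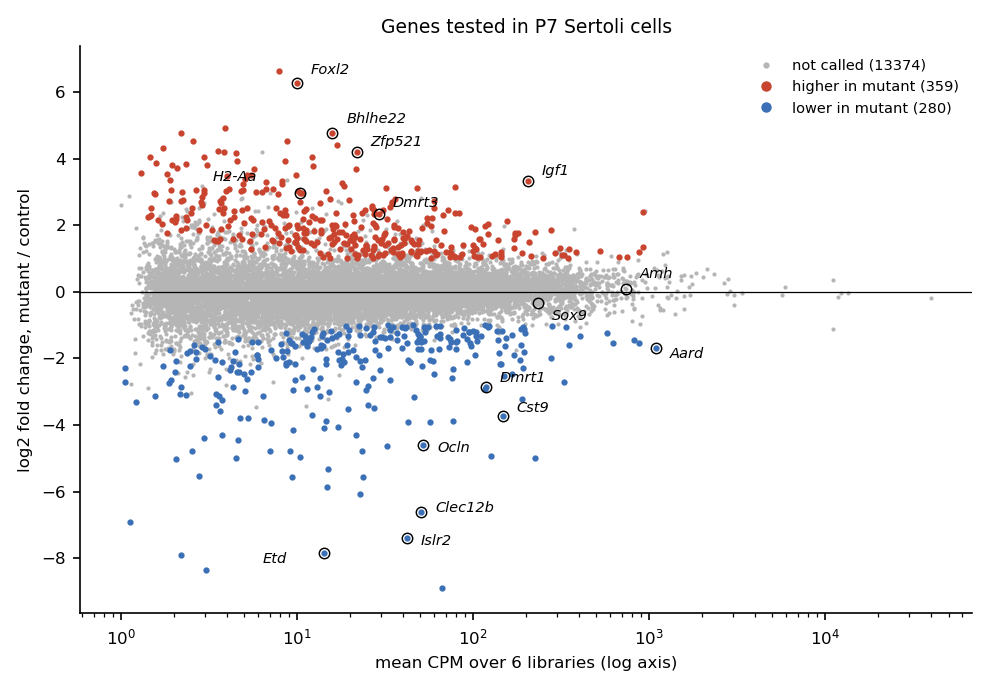
Log2 fold change of mutant against control P7 Sertoli cells (vertical axis) against mean CPM over the 6 libraries (horizontal log axis) for the 14013 genes tested. The 359 genes higher in mutant cells are red and the 280 lower are blue, and Etd and Islr2 lie among the deepest losses and Foxl2 at the top.

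The cells still expressed several genes that define Sertoli cells at levels that did not pass the test, while others fell. Of 10 defining markers, 4 fell, none rose and 6 did not pass the test. Sox9, the transcription factor that starts Sertoli differentiation, was at 230, 318 and 232 CPM in controls and 145, 178 and 297 CPM in mutants, and the groups overlapped (log2 fold change -0.33, adjusted p = 0.521). Amh, which encodes anti-Müllerian hormone, overlapped as well, at 582, 1012 and 562 CPM against 533, 649 and 1084 (0.07, adjusted p = 0.92). Wt1, Gata4, Dhh and Inha, the inhibin alpha subunit, had log2 fold changes of 0.66, 0.68, -0.27 and 0.30 and also did not pass. Of the 10 markers, 2 were higher in every mutant library than in any control without being called. Over all genes tested, 14.5% showed that separation. Thus the libraries of both groups carry the leading Sertoli transcripts of their label.

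The 4 defining markers that fell serve the barrier, hormone reception and secretion. Fshr, the receptor for follicle stimulating hormone, stood at 120, 121 and 91.8 CPM in controls and 41.1, 32.7 and 43.8 CPM in mutants, a 2.83-fold decrease (log2 fold change -1.50, SE 0.183, adjusted p = 0.00359). Clu, the secreted chaperone clusterin, was at 1435, 996 and 1149 CPM against 490, 347 and 463 (-1.46, adjusted p = 0.00777). Cldn11 and Cst9 are described with their families. The longer list of 30 Sertoli markers had 27 members tested, of which 7 fell and none rose, with a median of -0.35 on the log2 scale. The other 3 that fell were Ocln, Etd and Aard. Aard, an alanine and arginine rich protein, went from 1778.5, 1677 and 1524 CPM to 513, 495 and 527 CPM (-1.70, adjusted p = 0.0016). Etd, an X-linked gene of embryonic testis, was read 624 times in controls and 2 times in mutants, a ratio of 0.00352 (95% counting interval 0.000425 to 0.0128, counting error only).

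Tight junction genes of the blood-testis barrier fell together with the gap junction gene Gja1. Ocln, encoding the membrane protein occludin, was at 107, 76.3 and 117 CPM in controls and 3.72, 4.92 and 3.70 CPM in mutants, which did not overlap and differed 24.4-fold (log2 fold change -4.61, SE 0.245, adjusted p = 0.000396). Cldn11, which encodes the Sertoli claudin, was at 262, 139 and 358 CPM against 42.6, 44.3 and 46.1 CPM (-2.52, SE 0.314, adjusted p = 0.00403). The mutant values of both genes lay close together, while controls spread more widely. Of 18 genes on the tight junction list 13 were tested, 4 fell and 1 rose, with a median of -0.54. Jam3, a junctional adhesion molecule, fell by 1.34 on the log2 scale (adjusted p = 0.00913). Marveld2, the gene of tricellulin, also fell by 1.34 (adjusted p = 0.0112), but not without control 3 (adjusted p = 0.0514). Amotl1, an angiomotin that binds junction scaffolds, rose from 19.9, 22.2 and 18.1 CPM to 59.2, 59.2 and 72.6 (1.66, adjusted p = 0.00189).

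Among 13 genes of other adhesion and gap junctions, all tested, 1 fell and 2 rose. Gja1, the connexin through which Sertoli cells couple to germ cells and to each other, dropped from 1188, 1388 and 1322 CPM to 425, 440 and 471 CPM (log2 fold change -1.54, SE 0.162, adjusted p = 0.00195). Ncam1, a neural cell adhesion molecule, rose from 2.03, 2.49 and 2.16 CPM to 20.2, 16.1 and 17.9 (3.02, SE 0.277, adjusted p = 0.00146). Podxl, encoding the charged surface protein podocalyxin, rose from 25.4, 6.58 and 15.3 CPM to 192, 82.6 and 151 (3.15, adjusted p = 0.00824).

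Cystatins are inhibitors of cysteine proteases, and a cluster of them on chromosome 2 is used by the male reproductive tract. Cst9, known from Sertoli cells of the fetal testis, was at 372, 228 and 221 CPM in controls and 34.8, 14.6 and 11.7 CPM in mutants (log2 fold change -3.72, SE 0.425, adjusted p = 0.00279). It was the 1 member that fell of 5 tested out of 9, though all 5 had fold changes below 0. Cst12 was highest in library 1 of each group, at 292, 74.5 and 76.3 CPM against 265, 47.0 and 39.5 (-0.32, adjusted p = 0.844). Cstdc1 gave 17.4, 4.62 and 7.34 CPM against 8.21, 2.75 and 1.44 (-1.19, adjusted p = 0.346). For both the spread within groups exceeded the difference between them.

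**Figure D2:**
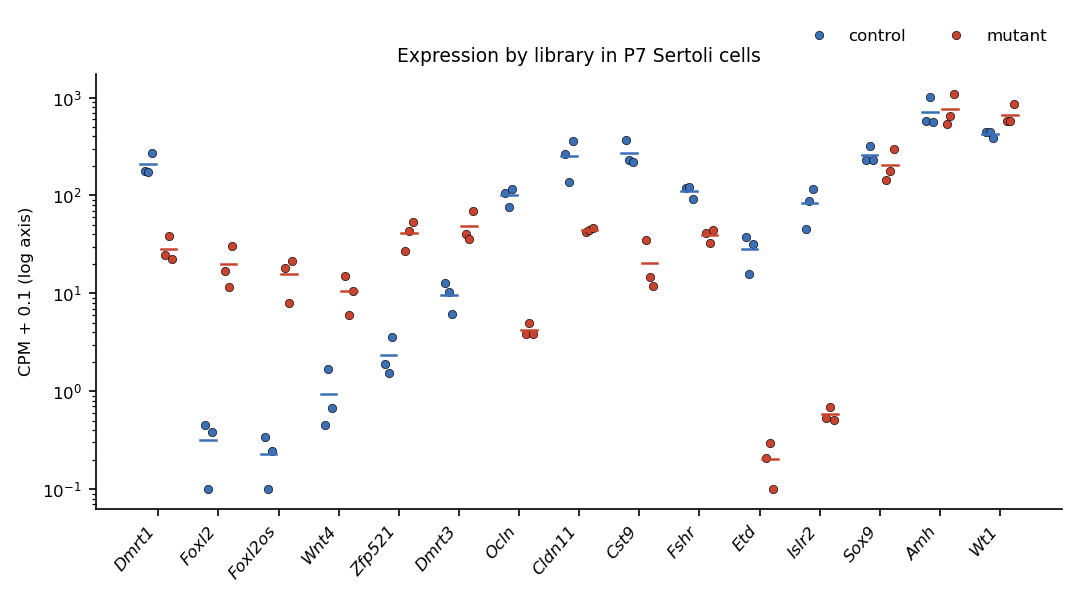
Expression of 15 genes in each of the 6 libraries, as CPM plus 0.1 on a log axis, with a point per library (control blue, mutant red) and a line at the group mean. Dmrt1, Ocln, Cldn11, Cst9, Fshr, Etd and Islr2 separate downward and Foxl2, Foxl2os, Wnt4, Zfp521 and Dmrt3 upward, while Sox9 and Amh overlap.

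The largest losses fell on genes with varied roles. Islr2, a leucine-rich membrane protein, was at 44.9, 88.0 and 117 CPM in controls and 0.438, 0.590 and 0.411 CPM in mutants, a 170-fold difference (log2 fold change -7.41, SE 0.49, adjusted p = 0.000498). Clec12b, a C-type lectin receptor, went from 94.8, 62.6 and 142 CPM to 0.109, 1.38 and 2.06 (-6.61, adjusted p = 0.00146). Both were also lower in mutant gonads at P3 and P28.

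Next came Tbc1d30, a Rab GTPase activating protein (-6.06), Tox, an HMG-box factor (-5.87), and Slc47a2, a cation transporter (-5.55). Kcna6, a voltage-gated potassium channel, went from 28.9, 25.6 and 33.3 CPM to 0.875, 0.984 and 0.206 CPM (-5.31, adjusted p = 0.000732). Stra6, the membrane receptor for retinol binding protein, went from 16.1, 8.18 and 35.7 CPM to 0.656, 0.590 and 0.617 CPM (-4.96, adjusted p = 0.00427). Stra6 was the 1 gene of 14 tested on the retinoid list that passed. Enpp2, or autotaxin, fell by 4.79 on the log2 scale, Rarres1, a retinoic acid responsive gene, by 4.64, Scara3, a scavenger receptor, by 4.31, and Otulinl by 4.15. The X-linked Rnf138rt1 and Tbx22, a T-box factor, both had a log2 fold change of -4.78, of which that of Tbx22 did not pass without mutant 1, 2 or 3 (adjusted p up to 0.0818).

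The female determinant Foxl2 was switched on from near absence. Foxl2, on chromosome 9, was at 0.358, 0 and 0.288 CPM in controls and 17.0, 11.6 and 30.4 CPM in mutants, 77.5-fold higher (log2 fold change 6.28, SE 0.649, adjusted p = 0.00189). The neighbouring lncRNA Foxl2os was read 3 times in all controls and 307 times in mutants, a ratio of 112 (95% counting interval 38.1 to 548), and the strand-specific counting separates it from Foxl2. Wnt4, a ligand required in the fetal ovary, rose from 0.358, 1.60 and 0.576 CPM to 15.0, 5.90 and 10.5 CPM (3.69, adjusted p = 0.0105). Wnt4 missed the threshold without control 3 or mutant 3 (adjusted p up to 0.0543).

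Foxl2, Foxl2os and Wnt4 were the 3 granulosa markers that rose, of 24 on the list and 16 tested. These 3 passed the filter on low counts through the mutant libraries alone. None of the 16 fell, and their median log2 fold change was 1.07. Esr2, estrogen receptor beta, was lower in each mutant library, at 2.63, 3.74 and 3.70 CPM against 6.20, 8.36 and 9.79 in controls (-1.28, adjusted p = 0.0632). Nr5a2, the orphan receptor LRH-1, likewise gave 1.75, 2.95 and 3.29 CPM against 7.15, 5.33 and 13 (-1.70, adjusted p = 0.0628). Neither passed the test in the main fit, whereas the paper reports both as reduced in these cells. Of the 16 tested, 3 had fold changes below 0, namely Esr2, Nr5a2 and Fst. For both the groups did not overlap, a separation toward lower values that 13.4% of genes tested showed. DESeq2 called 5 granulosa markers higher and 2 lower, and the fit without control 2 called 6 higher and 2 lower. With no filter on low counts, over all 24 members, 9 were higher and 3 lower, with a median of 0.55.

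Among 33 transcription factors of gonadal sex determination, 26 were tested, 5 rose and 2 fell. DESeq2 called 5 of them higher and 6 lower, and with no filter on low counts 7 were higher and 7 lower of 32. Zfp521, a zinc finger co-regulator, went from 1.79, 1.42 and 3.46 CPM to 26.7, 42.9 and 54.1 CPM, 18.2-fold higher (log2 fold change 4.19, SE 0.401, adjusted p = 0.00157). Dmrt3, the paralog that lies next to Dmrt1, rose while Dmrt1 fell, from 12.6, 10.1 and 6.05 CPM to 40.0, 36.2 and 69.7 CPM (2.33, SE 0.344, adjusted p = 0.00781). Nr2f1, or COUP-TFI, rose from 4.05, 2.13 and 1.87 CPM to 12.3, 17.5 and 24.3 (2.71, adjusted p = 0.00828). Zfpm2, the GATA cofactor FOG2, passed narrowly (1.16, adjusted p = 0.0461) and not without control 1, control 3 or any 1 mutant library (adjusted p up to 0.143). Nr0b1, or DAX1, fell from 64.3, 48.5 and 73.6 CPM to 19.9, 21 and 23.8 CPM (-1.53, adjusted p = 0.00462).

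Several of the largest gains were transcription factors of other lineages that controls barely expressed. Bhlhe22, a neural basic helix-loop-helix factor, went from 1.91, 0.711 and 0.576 CPM to 27.4, 30.3 and 34.1 CPM (log2 fold change 4.76, SE 0.41, adjusted p = 0.00109). Prox1, the homeobox factor of lymphatic vessels and liver, went from 0.715, 3.02 and 0.576 CPM to 19.3, 17.3 and 31.9 CPM (4.05, adjusted p = 0.00741). Elk3, an ETS factor, went from 1.43, 2.67 and 1.01 CPM to 23.1, 21.6 and 23.6 (3.76, adjusted p = 0.00157).

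Other leading gains were Inpp5j, an inositol phosphatase (4.42), Rbms3, an RNA binding protein (3.69), the lncRNA Mirt1 (3.50) and Epha4, an ephrin receptor (3.39). Rbms3 and Mirt1 did not pass without mutant 3 (adjusted p = 0.0539 and 0.0514). Controls 1 and 3 held 1.19 and 1.15 CPM of Rbms3 and control 2 held 7.47.

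Several genes of MHC class II, which present peptides to T cells and are usually restricted to professional antigen presenting cells, rose. Of 11 members, 6 had enough counts to test, 6 were called higher in mutant cells and 5 were not tested. Of the 6, 5 had fewer than 10 counts in 1 or more control libraries and so passed the filter on low counts through the mutant libraries, so that their count is no support for the list, and H2-Aa passed it in each library. Summed over the list, controls held 7.05 to 11.8 CPM and mutants 71.0 to 109 CPM. Ciita, the coactivator that controls this family, went from 1.31, 0.356 and 0.864 CPM to 11.7, 9.64 and 9.05 CPM (3.51, SE 0.443, adjusted p = 0.00414). Cd74, the invariant chain, went from 1.43, 0.889 and 0.720 CPM to 16.3, 13.2 and 18.5 CPM (3.93, SE 0.367, adjusted p = 0.00146).

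The chain genes are given next. H2-Aa was at 2.50, 2.31 and 2.16 CPM against 23.6, 18.3 and 13 (2.97, SE 0.324, adjusted p = 0.0022). H2-Ab1 was at 2.50, 1.60 and 0.576 CPM against 23.1, 14 and 17.5 (3.51, adjusted p = 0.00584), and H2-Eb1 at 1.91, 1.96 and 0.864 CPM against 23.1, 10.6 and 10.7 (3.23, adjusted p = 0.00778). For these 3 neighbours on chromosome 17 no mutant value reached down to a control value. H2-DMa, which loads peptides, passed with all libraries (1.99, adjusted p = 0.0339) and not when any 1 was left out (adjusted p up to 0.144). Of 17 MHC class I and interferon response genes, 11 were tested and 1 rose, the peptide transporter Tap1 (1.70, adjusted p = 0.0427), which was not called under 5 of the 6 fits without 1 library (adjusted p up to 0.157).

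MHC class II transcripts also mark macrophages, dendritic cells and B cells, and in bulk RNA more cells of a type cannot be told apart from more RNA per cell. On the macrophage list, 12 of 16 members had too few counts to test. Csf1r had at most 2 counts in any library, Adgre1 at most 3, Ptprc at most 4, and Tyrobp had none. C1qa was read 0, 0 and 0 times in controls and 4, 3 and 5 times in mutants, C1qb 0, 1 and 1 times against 2, 8 and 2, Cx3cr1 1, 0 and 0 times against 2, 3 and 3, and the lysozyme gene Lyz2 2, 1 and 0 times against 3, 10 and 11. These 4 were thus higher in each mutant library, at low counts. Fcer1g went the other way, read 2, 2 and 8 times in controls and 1, 0 and 0 times in mutants. Cd14 was read 5, 6 and 8 times against 2, 3 and 6. The summed level of the list was 39.6 to 94.9 CPM in controls and 14.9 to 25.1 CPM in mutants. Most of the control sums was Mpeg1, which fell from 28.4, 26.0 and 78.5 CPM to 4.49, 7.08 and 7.61 CPM (-2.81, adjusted p = 0.0125), though not without mutant 3 (adjusted p = 0.0612). Without Mpeg1 the sums were 11.2 to 16.4 CPM in controls and 10.4 to 17.5 CPM in mutants, which overlap. Of 11 lymphoid and dendritic markers 10 were not tested, with at most 10 counts in any library, and Cd79b and Cd209a had none. The dendritic markers Flt3 and Xcr1 were lower in each mutant library. Flt3 was read 10, 4 and 6 times in controls and 0, 0 and 0 times in mutants, and Xcr1 6, 4 and 9 times against 1, 0 and 0. Ms4a1 went the other way, with 0, 0 and 0 against 2, 1 and 1. The part these cells had in the MHC class II result was not tested.

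Promoters of class II genes are known to carry an SXY module, in which the Y box binds NF-Y, and from which CIITA acts without touching DNA. To show where it sits in genes that rose, the 250 bases before the start of H2-Aa (chr17:34287824-34288073, minus strand) and of H2-Eb1 (chr17:34305617-34305866, plus strand) are printed from RefSeq on GRCm38.p6, 5′ to 3′, with the letters of the Y box in capitals.
H2-Aa: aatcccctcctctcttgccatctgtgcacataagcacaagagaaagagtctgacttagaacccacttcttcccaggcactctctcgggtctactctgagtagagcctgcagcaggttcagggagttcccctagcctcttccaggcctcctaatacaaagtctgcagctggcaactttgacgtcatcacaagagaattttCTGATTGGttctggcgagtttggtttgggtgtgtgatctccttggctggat
H2-Eb1: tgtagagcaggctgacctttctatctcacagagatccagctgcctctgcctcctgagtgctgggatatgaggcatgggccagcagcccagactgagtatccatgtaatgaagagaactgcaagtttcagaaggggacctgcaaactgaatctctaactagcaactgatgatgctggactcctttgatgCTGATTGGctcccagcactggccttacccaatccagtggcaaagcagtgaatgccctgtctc
The capitals begin 51 bases before the start of H2-Aa and 62 bases before that of H2-Eb1. Of the other called class II genes, H2-DMa matched a RefSeq promoter that did not hold these letters, and H2-Ab1, Cd74 and Ciita were not matched.

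The same letters, CTGATTGG on either strand, stood in the 250 bases before 6.73% of the 10215 tested genes that matched a RefSeq promoter by symbol. They stood before 22 of the 252 matched genes that rose (8.73%) and 11 of the 198 that fell (5.56%). ACATTGT, the core of the DMRT1 motif, was found before 1.64% of all, 1.19% of those that rose and 1.52% of those that fell. For the forkhead letters GTAAACA the shares were 2.64%, 2.78% and 1.52%, and for the NR5A letters CAAGGTCA 1.19%, 1.19% and 3.03% (6 genes). These are matches of letters in a window, not binding sites, and shares in the called genes rest on 3 to 22 genes.

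The Wnt pathway genes called in the main fit all rose, and most of them encode proteins that restrain the pathway. What their rise meant for the activity of the pathway was not tested. Of 22 genes, 21 were tested, 6 rose and none fell, with a median log2 fold change of 0.39. Besides Wnt4 and the ligand Wnt11 (3.55), these were Wif1, a secreted inhibitor, the destruction complex scaffold Axin2, Nkd1, and Notum, an extracellular enzyme that inactivates Wnt ligands. Wif1 went from 12.5, 11.9 and 4.32 CPM to 52.5, 42.9 and 61.3 CPM (2.44, adjusted p = 0.00801), and Axin2 from 31.6, 37.0 and 38.7 CPM to 67.4, 71.2 and 111.2 (1.22, adjusted p = 0.0179). DESeq2 called 7 of the list higher and 1 lower, and the fit with no filter 7 higher and 2 lower. With all 30 libraries 7 were higher and 1 lower, and without control 2, 4 were higher and 1 lower. From 1 to 4 genes of the list were called higher when 1 library was left out (1 without control 3 and 1 without mutant 3). Axin2 (adjusted p up to 0.0594), Nkd1 (0.151), Wnt11 (0.105) and Notum (0.184) each missed the threshold in some of these fits.

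In the TGF-beta and BMP pathways 3 genes rose and 2 fell of 21 tested, with a median of 0.60. Tgfb2, a ligand, went from 5.96, 6.05 and 4.03 CPM to 17.3, 33.2 and 32.5 CPM (2.36, SE 0.328, adjusted p = 0.00646). Ltbp1, which stores the latent ligand in the matrix, went from 24.9, 15.8 and 5.90 CPM to 86.4, 83.0 and 141 (2.72, adjusted p = 0.0125, and 0.058 without mutant 3). Acvrl1, the receptor ALK1, fell from 68.2, 79.0 and 86.1 CPM to 20.8, 25.6 and 24.3 CPM (-1.73, SE 0.17, adjusted p = 0.0016). Tgfbi, a matrix protein induced by the pathway, fell by 3.41 on the log2 scale (adjusted p = 0.00107). Of the inhibin, activin and AMH list, all 15 were tested, 2 fell and 1 rose. Beside Fshr, Bambi, a decoy receptor, fell from 94.3, 103 and 88.8 CPM to 24.1, 22.0 and 22.0 CPM (-2.07, SE 0.152, adjusted p = 0.000724), while the receptor Acvr1c rose (1.90, adjusted p = 0.036, and up to 0.126 without 1 library).

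The insulin-like growth factor system changed at the ligand, a receptor and a binding protein. Igfbp3, which binds IGFs outside the cell, fell from 117, 88.9 and 113 CPM to 4.92, 10.0 and 6.37 CPM, a 15.2-fold decrease (log2 fold change -3.92, SE 0.277, adjusted p = 0.000637). Igf1 rose from 17.2, 86.4 and 9.07 CPM to 322, 531 and 255 CPM (3.31, SE 0.75, adjusted p = 0.0391), with control 2 far above the other controls. Igf1 did not pass without control 1, control 3, or any 1 mutant (adjusted p up to 0.103). Insr, the insulin receptor, went from 57.6, 55.5 and 50.2 CPM to 115, 94.4 and 130 (1.05, adjusted p = 0.00963, and up to 0.0531 without control 3 or mutant 3). Of 13 genes tested on this list 2 rose and 1 fell, with a median of 0.41.

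The fibroblast growth factor receptors Fgfr1 and Fgfr2 rose. Fgfr1 went from 26.1, 24.2 and 20.0 CPM to 73.9, 74.8 and 126 CPM (log2 fold change 1.96, SE 0.247, adjusted p = 0.00414), and Fgfr2 from 3.81, 4.80 and 3.31 CPM to 15.2, 15.3 and 17.3 (2.00, SE 0.273, adjusted p = 0.00594). Flrt3, a membrane partner of these receptors, rose by 1.99 (adjusted p = 0.00709), whereas its relative Flrt1 fell by 1.46 (adjusted p = 0.00583). With 14 genes tested, 3 rose and 1 fell.

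For the Notch pathway 2 genes rose and 1 fell of 21 tested. Hey1, a target and repressor, went from 10.7, 9.96 and 6.77 CPM to 49.1, 58.8 and 80.2 CPM (log2 fold change 2.77, SE 0.261, adjusted p = 0.00146). The ligand Jag1 passed with all libraries (1.63, adjusted p = 0.0426) and failed in 4 of the fits without 1 library (adjusted p up to 0.15). Dtx4, a Deltex ubiquitin ligase, fell from 124, 145 and 113 CPM to 17.0, 31.9 and 28.6 CPM (-2.32, SE 0.246, adjusted p = 0.00205).

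Semaphorins and their plexin and neuropilin receptors, which steer axons and cell contacts, changed in both directions, with 8 higher and 2 lower of 29 tested and a median of 0.65. Sema3c, a secreted ligand, fell from 203, 224 and 266 CPM to 58.0, 64.1 and 32.3 CPM (log2 fold change -2.16, SE 0.257, adjusted p = 0.00324). Plxnc1, a receptor, fell from 302, 338 and 313 CPM to 58.8, 48.8 and 88.8 CPM (-2.28, SE 0.228, adjusted p = 0.0017). Sema5a rose from 106, 107 and 89.3 CPM to 295, 287 and 461 CPM (1.78, SE 0.217, adjusted p = 0.00359) and Sema3d from 49.4, 49.3 and 45.2 CPM to 122, 150 and 107 CPM (1.40, adjusted p = 0.00324). Nrp1, a neuropilin, rose by 1.99 (adjusted p = 0.0151, and 0.056 without mutant 2). From 3 to 8 members were called higher when 1 library was left out, with 3 without mutant 3.

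Potassium channels changed in both directions. Of 35 tested, 5 rose and 4 fell, and the median was -0.07. Kcnd2 went from 2.86, 3.20 and 1.15 CPM to 18.6, 19.7 and 18.3 CPM (2.97, adjusted p = 0.00414), and the leak channel Kcnk3 rose by 3.23 (adjusted p = 0.00779). Kcng2, a modifying subunit, fell from 55.3, 83.6 and 74.9 CPM to 10.4, 15.7 and 23.6 CPM (-2.12, adjusted p = 0.0073), as did Kcna6 above.

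Few genes of several other functions passed the test. None of 21 cell cycle genes passed the test (median -0.18), nor did any of 13 genes of phagocytosis, by which Sertoli cells clear dying germ cells. In the lactate and glucose list 1 of 12 rose, Pdk4 (1.71, adjusted p = 0.0163, and up to 0.0676 without 1 library). Among factors that support germ cells 1 of 11 rose, Jag1. The steroid list had 1 gene higher, Star, and 1 lower, Nr0b1, of 14 tested. On that list DESeq2 called 1 higher and 4 lower, the fit of all 30 libraries 2 and 4, and the fit with no filter 3 and 4. Of 17 genes known to respond to tissue dissociation 1 rose, Atf3 (1.17, adjusted p = 0.0436, and up to 0.138 without 1 library). Without control 2, 5 of these 17 and 2 of the 13 phagocytosis genes were called higher, and DESeq2, the fit with no filter and the fit of all 30 libraries each called 3 of the 17.

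**Figure D3:**
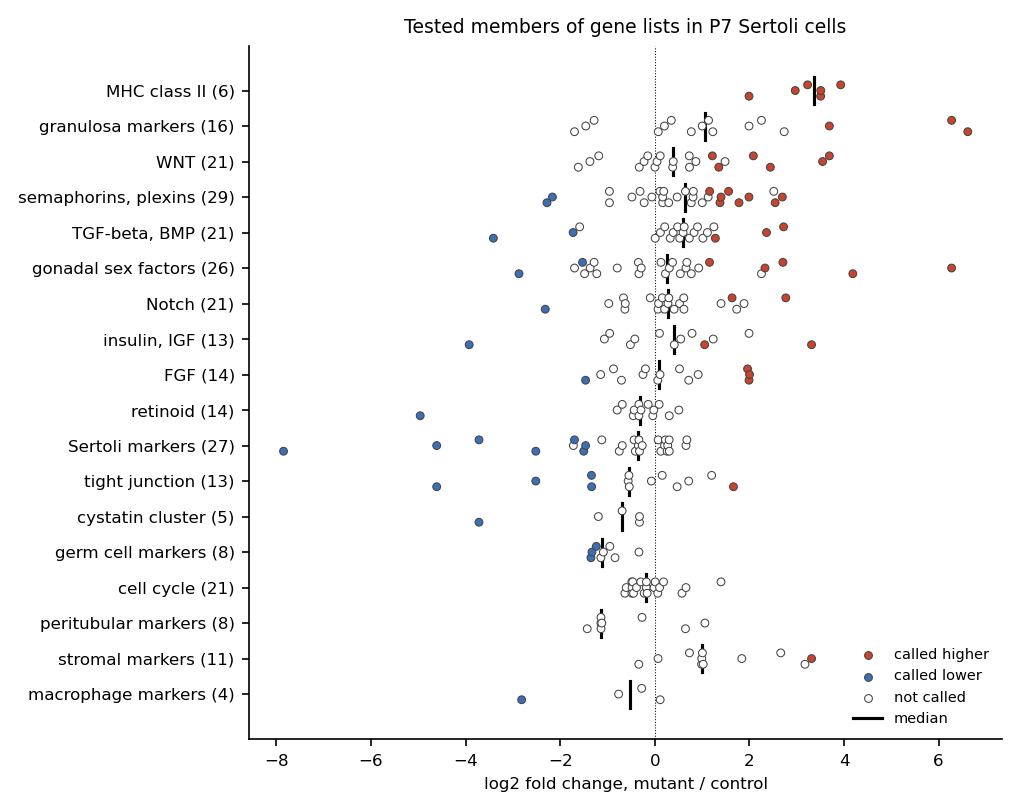
Log2 fold change (mutant minus control) of each tested member of the gene lists, with a point per gene, called genes in colour and a bar at the list median. The 6 tested MHC class II genes lie above 0, granulosa and semaphorin genes spread upward, and Sertoli and tight junction genes reach down to Ocln.

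Markers of other testis cells were present in both groups. All 8 general germ cell markers had log2 fold changes below 0 (median -1.11), and 3 passed the test, Mael, Tex101 and Dnd1 (adjusted p up to 0.101, 0.163 and 0.132 without 1 library). Mael, a piRNA factor, was at 47.2, 29.2 and 54.3 CPM in controls and 14.7, 21.8 and 15.0 CPM in mutants (-1.35, adjusted p = 0.0267). Summed over this list, controls held 361 to 656 CPM and mutants 188 to 492 CPM, which overlap. Of 8 markers of differentiating spermatogonia 2 fell, Sohlh1 and Sohlh2 (adjusted p = 0.0482 and 0.0379, and up to 0.167 and 0.137 without 1 library), and none of 13 markers of undifferentiated spermatogonia or of 7 of spermatocytes passed. Without control 3, mutant 1 or mutant 3, none of the 8 general markers was called. Without control 2, 6 of these 8 and 4 of the 13 undifferentiated spermatogonia markers were lower, DESeq2 called 5 and 4 lower, and with no filter on low counts 5 of 8 and 7 of 14 were.

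Stromal markers summed to 51.6, 376 and 54.7 CPM in controls and 454, 1034 and 418 CPM in mutants. Igf1, the 1 member of 11 tested that rose, made up most of each mutant sum. Peritubular myoid markers summed to 74.4, 246 and 81.2 CPM against 57.1, 94.4 and 62.9 CPM, and none of 8 passed. Control 2, which stood apart in the principal components, was the highest control for both lists. Without control 2, 7 of the stromal markers rose. Endothelial markers included 1 gene that rose of 7 tested, Pecam1, from 5.25, 6.05 and 3.60 CPM to 16.4, 17.5 and 16.9 CPM (1.77, adjusted p = 0.00995). Of 7 Leydig markers tested Star, which carries cholesterol into mitochondria, rose (1.40, adjusted p = 0.0312, and up to 0.0857 without 1 library), and of 4 rete testis markers the keratins Krt8 (1.65, adjusted p = 0.0073) and Krt18 (1.40, adjusted p = 0.0498). Krt18 missed the threshold in 5 of the 6 fits without 1 library (adjusted p up to 0.147). With no filter 6 of 11 Leydig markers rose, with all 30 libraries 4 of 11, and without control 2, 3 of 8. None fell in these fits, and without control 3 none of 8 was called. Neither Schwann cell markers (4 tested) nor the 1 erythroid marker tested passed. The part these cell types had in the genes named above was not tested.

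The share of genes that fell was higher on the X chromosome than on any autosome. Of 541 X-linked genes tested, 33 fell (6.10%) and 12 rose (2.22%). Of autosomal genes, 247 of 13433 fell (1.84%), and by autosome the share ran from 0.803% on chromosome 8 to 2.88% on chromosome 6. The share of genes that rose was 2.58% on autosomes. Neighbouring genes are not independent, and the difference between chromosomes was not tested. The following X-linked genes were named after their values were seen.

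On the X chromosome, 4933402E13Rik fell from 84.9, 66.1 and 247 CPM to 0.219, 0.197 and 0.411 CPM (log2 fold change -8.88, adjusted p = 0.00109). Gm14569 fell from 322, 243 and 734 CPM to 12.4, 12.4 and 16.4 CPM (-4.98, adjusted p = 0.00132), and 4930550L24Rik from 187, 180 and 366 CPM to 5.91, 11.8 and 6.58 CPM (-4.94, adjusted p = 0.000887). Control 3 was the highest library for each. Plac1, a gene best known from placenta, fell by 3.70 on the log2 scale (adjusted p = 0.00109), Fgf13, a growth factor relative that acts inside the cell, by 3.49 (adjusted p = 0.00107), and Mageb18, of the MAGE cancer-testis family, by 4.46 (adjusted p = 0.0109). How reads that match several copies of such genes were counted is not given in the sources used here.

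**Figure D4:**
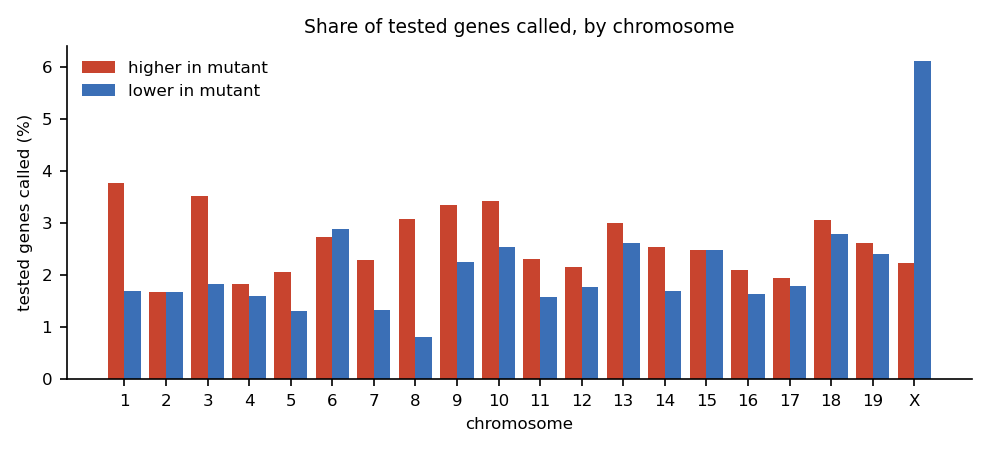
Share of tested genes on each chromosome that were lower or higher in mutant P7 Sertoli cells, in percent, with a bar for each direction and chromosome. The X chromosome has the highest share of lower genes, 6.10%, and its share of higher genes, 2.22%, lies among those of the autosomes.

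Called genes lay side by side in several places. Among tested genes in order along each chromosome, 67 runs of 2 or 3 called genes held 143 genes, of which 47 runs went in 1 direction and 20 were mixed. In 36 of the runs, 73 genes were next to each other in the full annotation as well. Over all genes tested, 2.56% were called higher and 2.00% lower, and some runs arise at such shares without any grouping. Whether there were more runs than that was not tested. Some runs hold genes that overlap on the chromosome, such as Reep1 with Gm44769 and Gm44770. On chromosome 13, Ocln and Marveld2 fell together, and on chromosome 9 Foxl2 and Foxl2os rose. On chromosome 2, Eppin (-1.91) and Wfdc8 (-3.14), protease inhibitors of the WFDC cluster, both fell, with Wfdc10 (-1.65) close by. Each of these 3 on chromosome 2 lost its call without 1 or more libraries, mutant 3 among them (adjusted p up to 0.0972, 0.0871 and 0.0644). On chromosome 7 the imprinted Peg3 (1.76) and Usp29 (1.28) rose (adjusted p up to 0.0741 and 0.155 without 1 library), and on chromosome 10 so did Enpp1 (2.53, and adjusted p = 0.0513 without control 3) and Ccn2, a matrix growth factor that went from 279, 483 and 114 CPM to 1443.5, 1321 and 1854 CPM (2.40, adjusted p = 0.0205, and up to 0.0839 without control 1 or mutant 3).

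Other neighbours parted. On chromosome 13 the forkhead gene Foxq1 fell from 70.9, 87.1 and 89.3 CPM to 5.47, 6.69 and 16 CPM (-3.16, adjusted p = 0.00324). The nearby forkhead gene Foxc1 rose from 0.238, 0.356 and 0.576 CPM to 2.19, 4.92 and 10.1 CPM (3.80, adjusted p = 0.0186, and up to 0.0632 without 1 library). Dmrt1 and Dmrt3 on chromosome 19 formed the same kind of pair.

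The Hi-C list describes chromatin contacts in mutant P7 Sertoli cells alone, so it gives no contrast with controls. It holds 4291 interactions between 10 kb anchors on the same chromosome, with a median distance of 240 kb. An anchor lay in the body or within 10 kb of 160 of the 359 genes that rose (44.6%, 95% Wilson interval 39.5 to 49.7%), 105 of the 280 that fell (37.5%, 32 to 43.3%) and 31.4% of tested genes that were not called. Each interval treats genes as independent, although neighbours such as Eppin and Wfdc8 shared an anchor. It does not measure the spread between libraries. Genes that rose were longer, with a median of 45.6 kb against 26.5 kb for those that fell and 20.8 kb for the rest. The part of gene length was not tested. With a window of 50 kb the shares were 59.1%, 57.9% and 54.0%.

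Contacts of single genes, taken with 10 kb on each side, were both shorter and longer than the median of 240 kb. An anchor within 10 kb of Dmrt3 was joined to one 300 kb away, Wnt4 had interactions over 390 and 230 kb, and Cldn11 over 640 and 460 kb. Kcnk3 and Podxl each had an interaction over 120 kb. Gja1 took part in 6 interactions, over 230 to 1070 kb.

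The effect in isolated P7 cells was then set beside that in whole gonads, where Dmrt1 null XY gonads were compared with heterozygous ones at P3 and at P28. These share no library with the P7 cells, but a gonad holds other cell types and its makeup differs from that of isolated cells. At P3, 32 genes rose (0.202% of 15837) and 49 fell (0.309%). Of the P7 genes that rose, 337 were tested at P3, where 20 rose and none fell, which is 5.57% of the P7 list and 62.5% of the P3 list. Of those that fell, 268 were tested and 35 fell, 12.5% of the P7 list and 71.4% of the P3 list. Their median log2 fold changes at P3 were 0.31 and -0.57.

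Losses common to P3 and P7 included Cldn11 (-1.37 at P3, adjusted p = 0.0416), Ocln (-2.27, adjusted p = 0.00774), Cst9 (-2.77, adjusted p = 0.0143), Fshr (-1.55, adjusted p = 0.00333) and Rarres1 (-4.71, adjusted p = 1.8e-07). Gains common to both included the class II genes H2-Aa (1.92, adjusted p = 0.0127), H2-Ab1 (2.26, adjusted p = 0.00452) and H2-Eb1 (2.11, adjusted p = 0.0146). Cd74 (1.13, adjusted p = 0.304) and Ciita (1.64, adjusted p = 0.0975) did not pass at P3. Foxl2 did not pass at P3 (1.05, adjusted p = 0.467), and its effect at P7 was larger by 5.24 on the log2 scale (adjusted p = 0.00054).

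At P28, 4149 genes rose (19.8% of 20952) and 8106 fell (38.7%). Of the P7 genes that rose 335 were tested there, 189 rose and 42 fell, and the 189 are 52.6% of the P7 list and 4.56% of the P28 list. Of those that fell 272 were tested, 131 fell and 34 rose, and the 131 are 46.8% of the P7 list and 1.62% of the P28 list. Medians at P28 were 1.37 and -0.96, beside 0.21 over all genes tested at P7. Foxl2 had a log2 fold change of 8.38 at P28, and the P7 minus P28 difference of -2.09 did not pass (adjusted p = 0.0868). Ocln (-2.50) and Cst9 (-3.05) were still lower. Esr2 (6.05) and Nr5a2 (5.75) rose strongly at P28, whereas their P7 values were -1.28 and -1.70. Fshr (1.61) and Gja1 (2.80) were higher at P28 and lower at P7. Of 6 class II genes tested at P28 none rose and 1, H2-DMa, fell. H2-Aa, H2-Ab1 and H2-Eb1 did not pass at P28 (1.02, 0.33 and 1.21), nor did Cd74 (0.83) or Ciita (1.21). The P7 effect was larger than that at P28 by 3.18 for H2-Ab1 (adjusted p = 0.000484). It was larger by 3.09 for Cd74 (adjusted p = 0.0040) and by 2.30 for Ciita (adjusted p = 0.0463). The same difference did not pass for H2-Aa (1.96, adjusted p = 0.0581) or H2-Eb1 (2.04, adjusted p = 0.0514).

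Tested as a difference between effects in a fit of all 30 libraries, the P7 effect differed from the P3 effect for 277 of 21696 genes (1.28%) and from the P28 effect for 8538 (39.4%). Of the P7 genes that rose, 136 differed from P3 and 167 from P28, and of those that fell, 78 and 168. These genes were picked for their P7 effect in the same P7 libraries. A share above that over all genes is thus partly built in. For Igfbp3, the P7 effect was lower than that at P3 by 3.98 (adjusted p = 9.57e-06), since P3 gonads gave a log2 fold change of 0.06. Kcna6 was similar (0.05 at P3, adjusted p of the difference 3.66e-09).

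**Figure D5:**
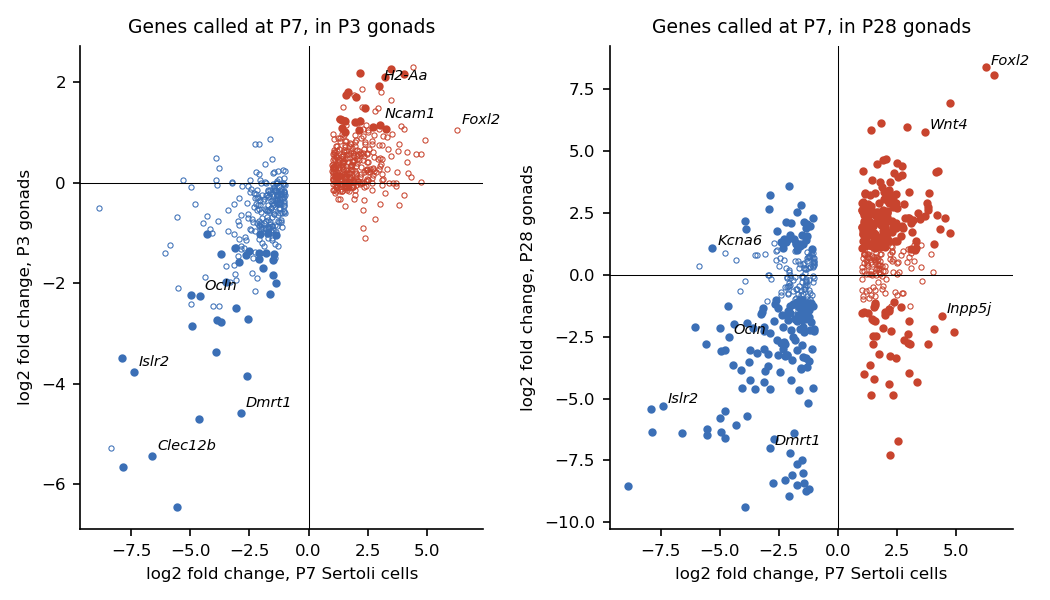
Log2 fold change in P7 Sertoli cells (horizontal axis) against that in P3 gonads (left) and P28 gonads (right) for the genes called at P7, with a point per gene (red higher and blue lower at P7, filled where also called in the gonads). The vertical scales differ between the panels: at P3 most points lie close to 0, while at P28 they spread further above and below.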

How the data were processed

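RNA was read as stranded paired-end libraries from poly(A) RNA. Per the labels and the paper's methods, the authors trimmed reads with Trim Galore 0.6.0 and cutadapt 1.18, aligned them to GRCm38 with STAR 2.7.2a, and deposited raw counts per gene for 55401 genes, counted by strand with Rsubread on GENCODE M25. The Hi-C list deposited by the authors, made per the paper's methods by mapping with HiC-Pro and calling interactions with cooltools, holds only positions of interacting anchors, with no score, count or p-value. No column (0) was left unmapped to a group. Depth was 5043838 to 8965797 counts per library, which limits genes with few reads.

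Groups followed the genotype labels. Counts of the 6 P7 libraries were filtered with filterByExpr, scaled by TMM and compared with the quasi-likelihood F test of edgeR 4.0.16 (limma 3.58.1, R 4.3.3), with Benjamini-Hochberg adjustment over all 14013 genes tested. Calls needed a fold change over 2 and an adjusted p below 0.05. Standard errors were calculated back from the fold change and F. Differences between ages were contrasts in 1 fit of 30 libraries. Gene positions came from GENCODE M21, in which 99.5% of identifiers were found, and promoters from RefSeq on GRCm38.p6. Alternatives were DESeq2 1.42.0, relative log expression scaling, library size alone, no filter, all libraries in 1 fit, the replicate number as a block, and each library left out.

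The members and the 38 gene lists were chosen with earlier results of these data known. Named were genes the study names for these cells, the 15 largest called changes in each direction with a mean of at least 5 CPM, without overlap and passing over predicted genes, up to 5 members per list with the smallest adjusted p and the defining Sertoli markers, and called genes adjacent in the annotation. Some X-linked genes were named after their values were seen. 1 gene under this rule is not reported here. Ratios for 1 to 3 counts carry 95% counting intervals.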

Additional observations from a re-analysis of the deposited data

Results flagged for a closer look

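The results here differed between P7 Sertoli cells and whole gonads of another age, by the edgeR contrast of the 2 effects in 1 fit of all 30 libraries. Between P7 and P3, 277 genes differed. The P7 effect, as a log2 fold change of mutant against control, exceeded that at P3 by 1.72 for Dmrt1 (adjusted p = 0.0161), 5.24 for Foxl2 (adjusted p = 0.00054) and 3.58 for Zfp521 (adjusted p = 3.26e-05). It was lower than at P3 for Nr5a2 (-2.20, adjusted p = 0.0184) and Ocln (-2.33, adjusted p = 0.0189). Dmrt1 was lower in both comparisons, by less at P7.

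Between P7 and P28, 8538 genes differed. Effects at P7 were higher for Dmrt1 (4.11, adjusted p = 2.71e-07) and Zfp521 (1.77, adjusted p = 0.00197) and lower for Esr2 (-7.32, adjusted p = 3.82e-10), Nr5a2 (-7.48, adjusted p = 1.36e-11) and Ocln (-2.10, adjusted p = 0.00228). Age, tissue and the kind of deletion differ together between these comparisons and cannot be told apart. Groups of 3 libraries were too small to be examined for single outlying values.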

How the results depend on the processing

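The counts of called genes moved with the filter, the joint fit and single libraries, and the cause was not tested. Without a filter on low counts, 711 genes were higher and 645 lower. With all 30 libraries in 1 fit, 720 were higher and 559 lower. DESeq2 called 518 higher and 408 lower. Relative log expression factors gave 356 and 276, and library size alone 354 and 301. Leaving out each library in turn gave 121 to 574 higher and 153 to 415 lower. Differences from P3 numbered 434 by DESeq2, 705 without the filter, and 160 to 644 without 1 library (160 without control 3 and 644 without control 2), and those from P28 8068 to 9067 without 1 library. Of the 639 genes, 95.3 to 99.4% were still called under another tool, scaling, filter or the joint fit, and 40.7 to 91.7% without 1 library. No called gene changed direction under these settings. Without 1 library, the log2 fold change of Amh ran from -0.29 to 0.39 and that of Cst12 from -1.81 to 0.67. With the replicate number as a block, 352 were higher and 283 lower, and 542 of the 639 (84.8%) were still called. Residuals of same-numbered libraries correlated at 0.505, 0.225 and -0.0371, and the main fit did not take the numbers as pairs. On the second principal component (20.6% of the variance), control and mutant stood at 29.3 and 38.1 for number 1. They stood at -44.3 and -16.6 for number 2 and at -2.84 and -3.56 for number 3. Whether same-numbered libraries were prepared together was not tested.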
